A study of Mus musculus with 4 samples.

Results

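The AP-1, BATF and IRF4 genes comprise 10 of the 25239 gene symbols counted in this RNA-Seq study. They were taken by name as the Jun genes *Jun*, *Junb* and *Jund*, the Fos genes *Fos*, *Fosb*, *Fosl1* and *Fosl2*, the BATF genes *Batf* and *Batf3*, and *Irf4*. All 10 were detected and passed the filter on low counts. The libraries came from tumor-infiltrating CD4+ T cells of C57BL/6 mice bearing lung tumors, 2 labelled WT and 2 labelled CD4CreERT2+/-/Acvr1bfl/fl (CD4/ALK4-KO). In the latter mice tamoxifen switches on Cre recombinase under the *Cd4* promoter, and Cre deletes *Acvr1b*, the gene of the activin receptor ALK4, in cells that express *Cd4*. Both genotypes were inoculated with LLC-OVA cells, that is, Lewis lung carcinoma carrying ovalbumin, and the labels give excision of the tumors at 18 to 22 days, whereas the methods state an earlier window for this experiment. The methods give male mice of 8 to 10 weeks of age. The Cre and floxed alleles of the WT mice and whether they received tamoxifen are not given in the sources used here.

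AP-1 is a family of dimers made of a Jun protein with a Fos protein or with another Jun protein. In T cells that receive both antigen and costimulatory signals, AP-1 binds next to NFAT on composite DNA sites and drives cytokine genes. NFAT that acts without AP-1 is associated with anergy and exhaustion. BATF and BATF3 resemble Fos in their dimerization domain, pair with Jun proteins and lack the part of Fos that activates transcription. BATF-JUN dimers bind cooperatively with IRF4, a factor induced by T cell receptor signals, at composite elements of helper T cell genes. The mRNA levels of these partners were therefore compared between the labelled genotypes. Such levels do not measure which partner a protein binds.

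Total counts ran from 11823908 to 13943237 per library. *Acvr1b*, the targeted gene, had 426 and 342 counts under the WT label and 322 and 445 under the CD4/ALK4-KO label. These ranges overlap, and directions below are between libraries as labelled, since the genotype could not be checked from these counts. All 12 T cell markers were higher in the CD4/ALK4-KO-labelled libraries, with a median log2 fold change of 2.39, and their summed level rose from 456 to 496 CPM (reads of a gene scaled to a fixed library total, adjusted by the TMM method) to between 2514 and 2633 CPM. The 10 macrophage markers summed to 6090 to 7842 CPM, most of it *Lyz2*, which neutrophils share. Without *Lyz2* the other 9 were at 2404 and 2155 CPM in the WT-labelled libraries, above the T cell markers, and at 1748 and 1862 CPM in the CD4/ALK4-KO-labelled ones, below them. The 8 fibroblast and endothelial markers summed to 5863 and 6434 CPM in the WT-labelled libraries and to 4124 and 3565 CPM in the CD4/ALK4-KO-labelled ones. Of these markers 3 were called lower, 1 higher and 4 not called, with a median log2 fold change of -0.48. Fold changes are therefore given both after TMM scaling and after scaling each library to its reads of *Cd3d*, *Cd3e*, *Cd3g* and *Cd247*, the genes of the CD3 complex, called here the CD3 scale. The second scale shifted the median log2 fold change of all genes from -0.0082 to -2.19. In bulk RNA, fewer cells of a type and less RNA per cell cannot be told apart.

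*Irf4* and *Batf* were higher and *Jun* and *Fosl1* lower in the CD4/ALK4-KO-labelled libraries, whereas the other 6 genes did not pass an adjusted p of 0.05 in edgeR's quasi-likelihood test. The 2 of 10 genes called higher compare with 17.4% of all 13919 genes tested, and the 2 called lower with 15.4%, so that the number of calls among the 10 genes was near the background in both directions. The median log2 fold change of the 10 genes was 0.076. The members ranged from -1.87 for *Fosl1* to 3.10 for *Irf4*. Only 60 of the genes tested had a larger fold change than *Irf4*, and 242 had a lower one than *Fosl1*. On the CD3 scale, 1 member was called higher and 9 lower, where 0.345% and 92.0% of all genes were so called.

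**Figure D1:**
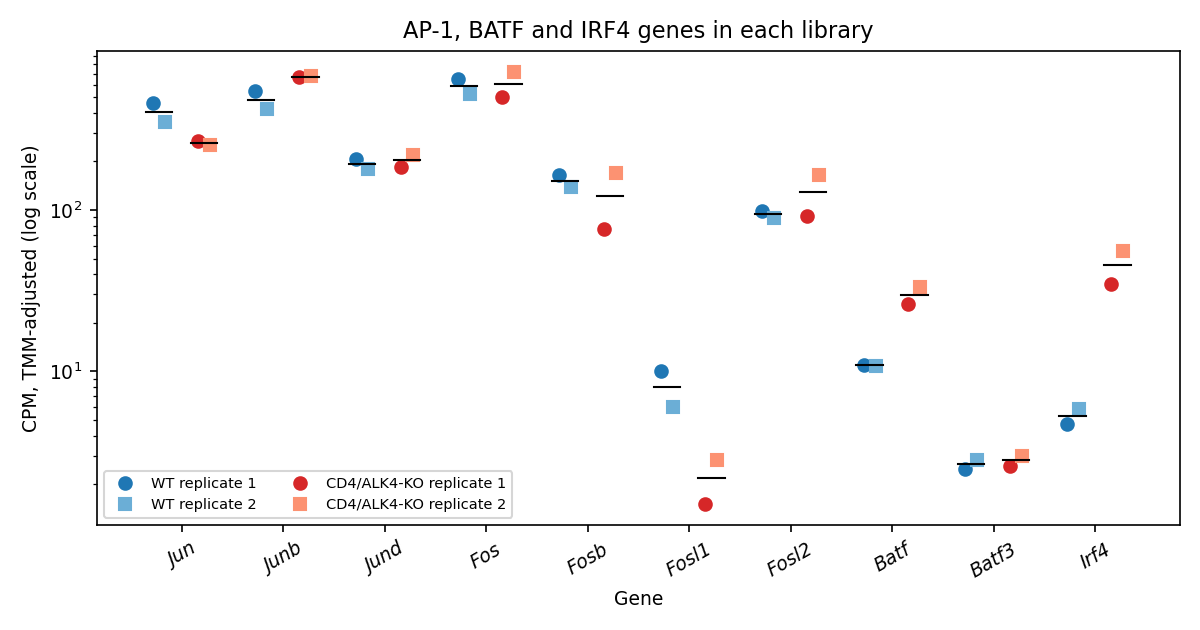
CPM (TMM-adjusted, log axis) of the 10 genes in each of the 4 libraries, with circles and squares for replicates 1 and 2 and black lines for the mean of each genotype. *Irf4* sits at 4.74 and 5.84 CPM in the WT-labelled libraries and at 34.6 and 56.0 CPM in the CD4/ALK4-KO-labelled ones, the widest gap between the genotypes.

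The Jun genes are the core of every AP-1 dimer, and their 3 members behaved differently. *Jun* encodes c-Jun, the partner of c-Fos in canonical AP-1, and had 461 and 352 CPM in the WT-labelled libraries and 269 and 254 CPM in the CD4/ALK4-KO-labelled ones. Both values of the latter lay below the first pair. The mean fell from 406 ± 77.2 to 262 ± 11.1 CPM (SD, n = 2), a log2 fold change of -0.64 (95% interval -1.09 to -0.18, adjusted p = 0.031). This call was lost without WT replicate 1 (log2 fold change -0.43, adjusted p = 0.49) and without WT replicate 2 (-0.83, adjusted p = 0.088). *Junb*, whose product is a weaker activator than c-Jun and a preferred partner of BATF in helper T cells, had 543 and 425 CPM against 666 and 679 CPM. Its groups did not overlap either, but in the opposite direction, and its log2 fold change of 0.47 (95% interval 0.031 to 0.92) had an adjusted p of 0.093. *Jund*, the broadly expressed Jun gene, had 208 and 179 CPM against 186 and 220 CPM, with overlapping groups and a log2 fold change of 0.070 (95% interval -0.38 to 0.52, adjusted p = 0.84). Of its exons, 52.6% also lie in *Gm11175* on the other strand. *Gm11175* is not among the counted symbols, so reads there would not be dropped as ambiguous with it. Without strand, the *Jund* counts may include reads of *Gm11175*, which also bears on the share of *Jund* among the Jun and Fos genes.

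Since *Jun* and *Junb* were read in the same libraries, their ratio is free of the scaling, though not of the mix of cells. The WT-labelled libraries held 84.9 and 82.8 *Jun* reads per 100 *Junb* reads, and the CD4/ALK4-KO-labelled ones held 40.5 and 37.4. The ratio was 2.16-fold lower in the CD4/ALK4-KO-labelled libraries, with a log2 difference of -1.11 and SDs of 0.026 and 0.081 within the genotypes. This pair was chosen after the counts were seen. With 2 libraries against 2, the exact permutation test (two-sided) gave p = 0.33, the smallest value it can give.

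*Jun* is a single exon of 3189 bp at chr4:95049034-95052222 on the minus strand (GRCm38), and its promoter is shown because *Jun* was the Jun gene that fell and is known to be controlled by AP-1 itself. The 250 bases upstream of its start, from RefSeq (GRCm38.p6, chr4:95052223-95052472, minus strand), are printed with capitals for motif matches. No AP-1 site (TGANTCA) or cAMP response element (TGACGTCA) was found on either strand in any of the 9 member promoters with a RefSeq entry, against 7.81% and 1.79% of all 32851 windows of 300 bases (250 before and 50 after a start). The *Jun* window held 1 match to TGACATCA, the variant known from the *Jun* promoter, 45 bases before the start, as did 3.62% of all windows, and 1 match to the NFAT core GGAAA, a motif present in 61.3% of windows. *Fosl1* was not among the entries. Only exact matches to these motifs were sought, so near matches are neither marked nor counted.

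Jun promoter: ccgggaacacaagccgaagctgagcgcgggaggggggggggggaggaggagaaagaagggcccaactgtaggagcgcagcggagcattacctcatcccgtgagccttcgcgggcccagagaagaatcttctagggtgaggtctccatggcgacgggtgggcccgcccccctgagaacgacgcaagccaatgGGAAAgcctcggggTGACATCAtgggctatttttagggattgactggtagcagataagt

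The Fos genes, which bind DNA only with a Jun partner, were led by *Fos*. *Fos* encodes c-Fos and had 648 and 525 CPM in the WT-labelled libraries against 503 and 714 CPM in the CD4/ALK4-KO-labelled ones. The CD4/ALK4-KO replicates lay on either side of both WT values, and the log2 fold change was 0.053 (95% interval -0.41 to 0.52, adjusted p = 0.88). *Fosb*, an immediate early gene like *Fos*, had 164 and 139 CPM against 75.9 and 170 CPM. *Fosl2*, the gene of Fra-2, had 98.7 and 89.2 CPM against 91.6 and 166 CPM. Neither gene separated the genotypes, with log2 fold changes of -0.30 (adjusted p = 0.49) and 0.45 (adjusted p = 0.16), and the CD4/ALK4-KO replicates lay far apart. *Fosb* was 2.24-fold, *Fosl2* 1.81-fold and *Fos* 1.42-fold higher in CD4/ALK4-KO replicate 2 than in replicate 1. Without CD4/ALK4-KO replicate 2, the log2 fold change of *Fosb* was -1.0 (adjusted p = 3.3e-05), and without CD4/ALK4-KO replicate 1 that of *Fosl2* was 0.85 (adjusted p = 0.00017). Of 14 genes of the dissociation and early response, 4 were more than 1.5-fold higher in the same library and 10 were not, with ratios from 0.983 (*Socs3*) to 2.39 (*Nr4a1*) and a median of 1.27. *Nr4a2* (2.86-fold) and *Egr2* (2.26-fold), early genes outside that list, were also higher there. The part of this in the values of *Fos*, *Fosb* and *Fosl2* was not tested.

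*Fosl1*, the gene of Fra-1, had few reads. It had 137 and 81 counts in the WT-labelled libraries and 18 and 35 counts in the CD4/ALK4-KO-labelled ones, with a mean of 7.99 ± 2.83 CPM against 2.17 ± 0.935 CPM (SD, n = 2). The groups did not overlap. The log2 fold change of -1.87 (95% interval -2.76 to -0.99, adjusted p = 0.0019) was a 3.66-fold fall and lost its call without WT replicate 1 (-1.46, adjusted p = 0.12). The ratio to its closest relative fell too, from 10.1 and 6.71 *Fosl1* reads per 100 *Fosl2* reads to 1.65 and 1.71, although this pair was chosen after the counts were seen and its exact permutation p was 0.33, the smallest possible. Of the exons of *Fosl1* (chr19:5447547-5455946), 57.2% also lie in *Ccdc85b* on the other strand, and reads there cannot be assigned without strand. *Ccdc85b* had 66.8 and 60.3 CPM against 36.5 and 33.9 CPM. The 8 epithelial or tumor markers were at 939 to 954 summed CPM in the WT-labelled libraries and 488 to 622 CPM in the CD4/ALK4-KO-labelled ones. Among them, 4 of the 7 tested were lower and 2 higher, and *Nkx2-1* had no more than 3 counts in any library. Their part in the fall of *Fosl1* was not tested.

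Per length, the 7 Jun and Fos genes summed to 822 and 660 RPKM (CPM per kilobase of exons) in the WT-labelled libraries and to 721 and 856 RPKM in the CD4/ALK4-KO-labelled ones, so that the total overlapped between the genotypes. Its makeup differed. *Jun* made up 17.6% and 16.7% of it in the WT-labelled libraries and 11.7% and 9.30% in the CD4/ALK4-KO-labelled ones. *Junb* made up 28.7% and 28.0% against 40.1% and 34.5%. *Fos* held 33.5% and 33.8% against 29.6% and 35.5%, and *Jund* stayed between 15.1% and 16.3% in all 4 libraries. In the WT-labelled libraries the order of levels per length was *Fos*, *Junb*, *Jun*, *Jund*, *Fosb*, *Fosl2*, *Batf*, *Fosl1*, *Batf3* and *Irf4*, in which *Fos* and *Junb* overlapped between libraries, as did *Jun* and *Jund*. In the CD4/ALK4-KO-labelled libraries, *Junb* and *Fos* came first and overlapped. *Jund* (122 ± 14.2 RPKM) stood above *Jun* (82.0 ± 3.49 RPKM) there. *Batf*, *Fosb*, *Fosl2* and *Irf4* followed with each overlapping the next, and *Fosl1* (1.07 ± 0.460 RPKM) was last. The length used for *Fosl1* includes the 57.2% of its exons shared with *Ccdc85b*, a counted gene. Its level per length may thus be understated in all libraries, and its place in both orders is uncertain.

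**Figure D2:**
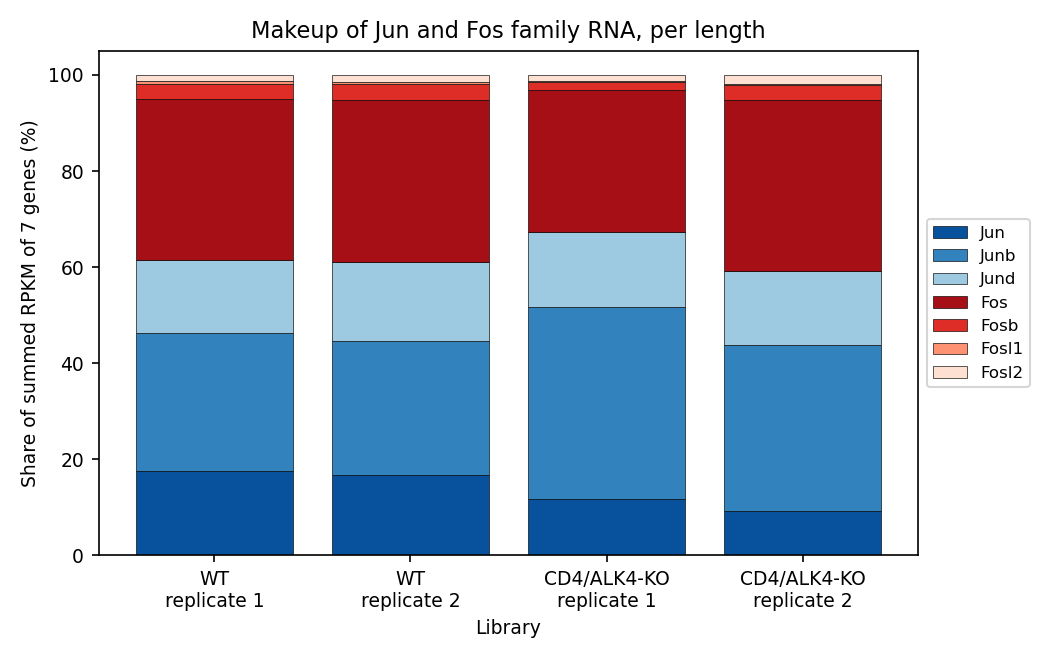
Stacked bars of the share (%) of each of the 7 Jun and Fos genes in their summed RPKM, 1 bar per library. The *Jun* segment shrinks from 17.6% and 16.7% in the WT-labelled libraries to 11.7% and 9.30% in the CD4/ALK4-KO-labelled ones, while *Junb* is the widest segment only in CD4/ALK4-KO replicate 1.

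*Batf* and *Batf3* encode short Fos-like proteins, of which BATF is required for Th17 and follicular helper T cells and BATF3 for a lineage of dendritic cells. *Batf* had 11.0 and 10.8 CPM in the WT-labelled libraries and 26.3 and 33.5 CPM in the CD4/ALK4-KO-labelled ones. The groups were well apart, with a log2 fold change of 1.45 (95% interval 0.90 to 2.01, adjusted p = 0.00025), which is 2.74-fold. The call held on omission of any 1 library, with log2 fold changes from 1.26 to 1.65. Per 100 reads of the CD3 complex genes, however, *Batf* had 5.70 and 5.95 reads in the WT-labelled libraries and 2.91 and 4.16 in the CD4/ALK4-KO-labelled ones. On that scale its log2 fold change was -0.72 (95% interval -1.35 to -0.090, adjusted p = 0.028). This call was lost without WT replicate 1 (adjusted p = 0.14), WT replicate 2 (0.17) and CD4/ALK4-KO replicate 1 (0.095). *Batf3* had 34 and 38 counts against 31 and 37 counts, with overlapping groups, and its log2 fold change of 0.083 (95% interval -0.91 to 1.07, adjusted p = 0.92) had a wide interval at this depth.

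*Batf* lies at chr12:85686669-85709087 on the plus strand. Its promoter is shown as that of the BATF gene which rose together with *Nfatc1* and *Nfatc2* on the TMM scale. The 199 bases upstream of both its RefSeq and its GENCODE start (RefSeq, GRCm38.p6, chr12:85686470-85686668, plus strand) held 2 matches to the NFAT core on the opposite strand, in capitals as they read here, 141 and 93 bases before the RefSeq start. The *Irf4* window had a single match, at the start itself. In the promoters of *Junb*, *Jund*, *Fos*, *Fosb* and *Fosl2* no exact match to any of the 4 motifs was found, which does not exclude near matches. That of *Batf3* held 1 match to the NFAT core.

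Batf promoter: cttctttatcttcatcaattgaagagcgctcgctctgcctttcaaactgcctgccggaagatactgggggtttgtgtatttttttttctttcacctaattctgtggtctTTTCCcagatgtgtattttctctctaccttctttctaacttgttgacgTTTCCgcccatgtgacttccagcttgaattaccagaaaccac

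*Irf4* had the largest rise of the 10 genes. It had 65 and 79 counts in the WT-labelled libraries and 412 and 692 in the CD4/ALK4-KO-labelled ones, or 4.74 and 5.84 CPM against 34.6 and 56.0 CPM. Every library of one genotype lay far from the other, although CD4/ALK4-KO replicate 2 was 1.62-fold above replicate 1. The log2 fold change was 3.10 (95% interval 2.48 to 3.71, adjusted p = 8.3e-08), or 8.56-fold, and ran from 2.70 to 3.43 on omission of single libraries. In reads per 100 reads of the CD3 complex genes, *Irf4* had 2.45 and 3.22 in the WT-labelled libraries and 3.83 and 6.97 in the CD4/ALK4-KO-labelled ones. On the CD3 scale 1 of the 4 scaling genes, *Cd3e*, was itself called higher (log2 fold change 0.75, adjusted p = 0.016), while *Cd3d* was at -0.22. Of the 12 T cell markers, 3 were called higher and 0 lower there. Intervals on this scale leave out the spread among the scaling genes. *Irf4* remained the member called higher, with a log2 fold change of 0.93 (95% interval 0.27 to 1.59, adjusted p = 0.0065). This second call rested on single libraries, since it was lost without CD4/ALK4-KO replicate 2 (0.43, adjusted p = 0.17) and without WT replicate 1 (0.74, adjusted p = 0.16).

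IRF4 is also made by activated B cells, plasma cells and dendritic cells. All 8 B cell markers were higher in the CD4/ALK4-KO-labelled libraries, with a median log2 fold change of 2.55, and their summed level was 60.3 to 72.6 CPM against 213 and 439 CPM, highest in CD4/ALK4-KO replicate 2. *Irf4* had 6.53 and 9.68 reads per 100 reads of these markers in the WT-labelled libraries and 16.2 and 12.8 in the CD4/ALK4-KO-labelled ones. Scaled to the B cell markers, its log2 fold change was 0.84 (95% interval -0.35 to 2.03, adjusted p = 0.18). Of the 8 conventional dendritic cell markers, 5 were higher and 1 lower, and they summed to 151 to 170 CPM against 377 to 386 CPM. Per 100 reads of these dendritic cell markers, *Irf4* had 3.14 and 3.44 reads in the WT-labelled libraries and 9.18 and 14.5 in the CD4/ALK4-KO-labelled ones. The 6 plasma cell markers summed to 418 to 484 CPM against 415 to 455 CPM, a sum made up mostly of *Xbp1* and *Sdc1*. Of the 5 tested, 3 were higher and 1 (*Sdc1*) lower, with a median log2 fold change of 1.27, and *Tnfrsf17*, a defining plasma cell gene, had 0 to 2 counts in every library. Their part in the rise of *Irf4* was not tested.

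NFAT genes were set beside the members as the partners of AP-1. *Nfatc1*, *Nfatc2*, *Nfatc3* and *Nfat5*, 4 of the 5 family members, were called higher on the TMM scale, against 17.4% of all genes tested. The family median was 1.58, and *Nfatc4* (36, 34, 26 and 17 counts) was not called. NFAT5 responds to osmotic stress and does not depend on calcineurin. On the CD3 scale none was called higher and 3 were called lower, *Nfatc3*, *Nfatc4* and *Nfat5*, while *Nfatc1* (-0.41, adjusted p = 0.20) and *Nfatc2* (-0.14, adjusted p = 0.71) were not past the threshold. All 7 Jun and Fos genes were called lower on that scale, as were 92.0% of all genes, and the difference between them and the NFAT genes was not tested.

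**Figure D3:**
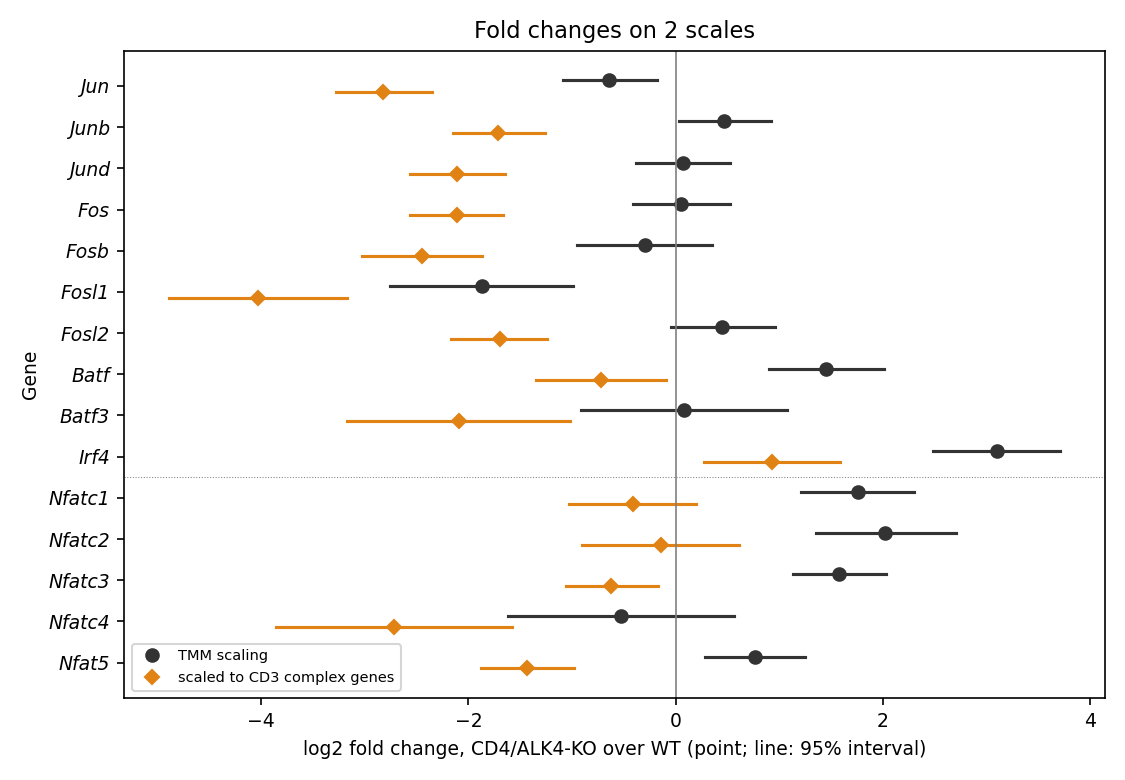
Log2 fold changes of the 10 members (above the dotted line) and the 5 NFAT genes (below it) between the CD4/ALK4-KO- and WT-labelled libraries, with 95% intervals, after TMM scaling (circles) and on the CD3 scale (diamonds). All 7 Jun and Fos genes lie below 0 on the CD3 scale, from -1.70 (*Fosl2*) to -4.03 (*Fosl1*), whereas *Irf4* is at 0.93.

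Ratios of reads between an NFAT gene and an AP-1 gene of the same library do not depend on either scale. They can still shift with the mix of cells, as can the ratios of *Batf* and *Irf4* below. T cell markers had a median log2 fold change of 2.39 on the TMM scale. On the CD3 scale *Nfatc1* was at -0.41, *Nfatc2* at -0.14 and *Jun* at -2.82, where the median of all genes was -2.19. The part of the cell mix in these ratios was not tested. *Nfatc1* had 3.02 and 2.88 reads per 100 *Jun* reads in the WT-labelled libraries and 13.1 and 18.2 in the CD4/ALK4-KO-labelled ones, a log2 difference of 2.38 (5.22-fold). For *Nfatc2* and *Jun* the values were 1.08 and 0.925 against 5.49 and 7.34, a log2 difference of 2.67. Relative to *Fos*, *Nfatc1* had 2.15 and 1.93 reads per 100 against 7.0 and 6.45, and *Nfatc2* had 0.765 and 0.620 against 2.94 and 2.61, log2 differences of 1.72 and 2.01. In all of these pairs the genotypes did not overlap.

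The ratios of *Batf* and *Irf4* to *Jun* were higher in the CD4/ALK4-KO-labelled libraries as well. *Batf* had 2.39 and 3.07 reads per 100 *Jun* reads in the WT-labelled libraries and 9.76 and 13.2 in the CD4/ALK4-KO-labelled ones, and relative to *Fos* it had 1.70 and 2.06 against 5.23 and 4.68. *Irf4* had 1.03 and 1.66 reads per 100 *Jun* reads against 12.8 and 22.1, a log2 difference of 3.69 (12.9-fold). Between *Nfatc2* and *Batf* the difference was smaller, with 45.0 and 30.1 reads per 100 *Batf* reads against 56.2 and 55.7, a log2 difference of 0.60 that ran from 0.31 without WT replicate 2 to 0.89 without WT replicate 1. *Irf4* reads exceeded *Batf* reads only in the CD4/ALK4-KO-labelled libraries, at 132 and 168 per 100 against 43.0 and 54.1, a pair chosen after the counts were seen. Of the 12 ratios computed, 8 were chosen from the roles of the genes and 4 from their counts. The study had already reported a rise of several NFAT genes and a fall of *Jun* and *Fosl1* in these libraries. The ratios of NFAT genes to *Jun* are therefore not independent evidence of a direction. Each of the 12 had an exact permutation p of 0.33 (two-sided), the smallest that 4 libraries allow. None could therefore pass a threshold of 0.05, with or without adjustment.

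**Figure D4:**
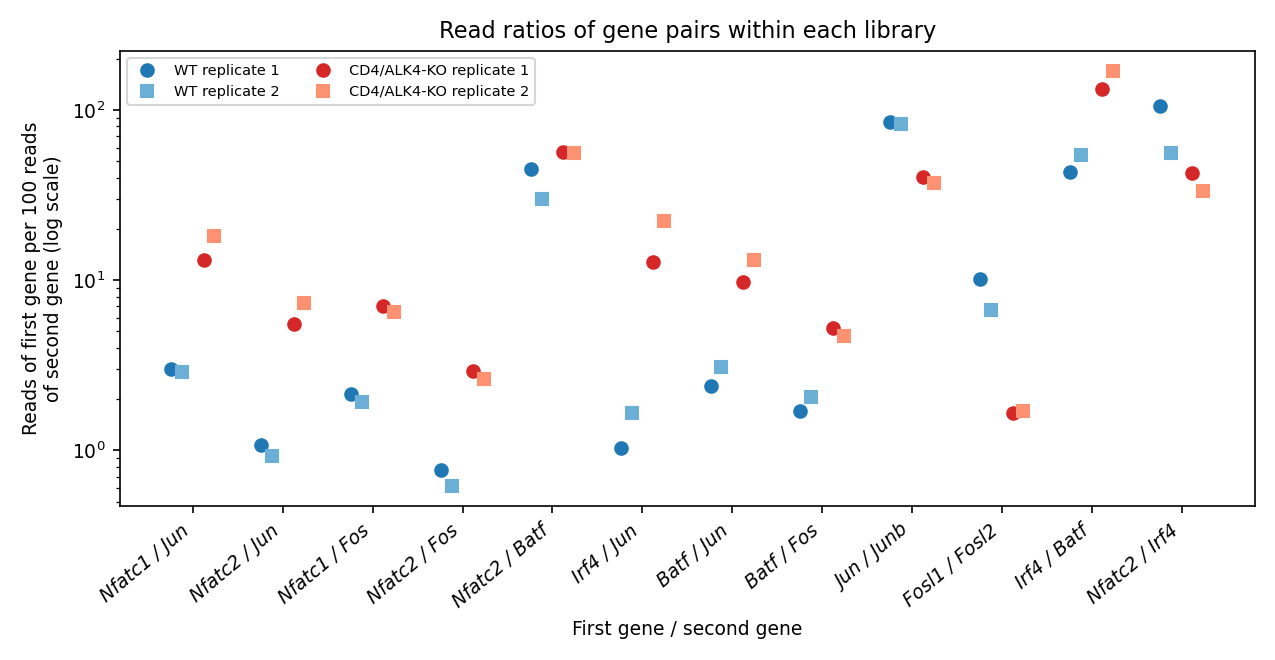
Reads of the first gene per 100 reads of the second gene (log axis) in each library for 12 gene pairs. The CD4/ALK4-KO-labelled libraries lie above the WT-labelled ones for the NFAT, *Batf* and *Irf4* ratios to *Jun* or *Fos* and below them for *Jun* to *Junb*, *Fosl1* to *Fosl2* and *Nfatc2* to *Irf4*.

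Of 12 further bZIP genes, 3 were called higher and 2 lower, with a median log2 fold change of 0.23. For this and the next 2 lists, the shares of all genes tested were 17.4% higher and 15.4% lower. *Bach2*, a repressor that competes for AP-1 sites and holds back effector differentiation, rose by 2.84 (standard error 0.30, adjusted p = 3.5e-07), from 45 and 52 counts to 279 and 341. On the CD3 scale *Bach2* was at 0.66 (adjusted p = 0.081). *Bach1*, a relative of *Bach2* in heme regulation, rose by 0.71, and by 0.54 to 0.88 on omission of single libraries. *Jdp2* (-0.83, adjusted p = 0.014), a Jun-dimerizing repressor, and *Maff* (-0.82, adjusted p = 0.031), a small Maf gene, fell, though both calls were lost without WT replicate 1 (adjusted p = 0.39 and 0.59). Of 12 genes of the IRF family, its ETS partners and Ikaros factors, 9 were called higher and none lower, with a median of 0.93. *Ikzf3* (2.89) and *Ikzf1* (2.64), lymphoid zinc finger factors, had the highest values, and *Irf7* and *Irf8* (0.64 each) had the smallest called rises. On omission of single libraries *Irf7* ran from 0.59 to 0.69 and *Irf8* from 0.42 to 0.87. These ranges, like that of *Bach1*, are of effect sizes and do not mean that the calls held. *Spi1*, which encodes PU.1, a partner of IRF4 in myeloid and B cells, was at 0.013 (adjusted p = 0.97). Of 16 kinases and factors upstream of AP-1, 14 were not called, with a median of 0.016. *Map3k1* (1.31, adjusted p = 0.00015), a kinase upstream of JNK, and *Elk4* (1.62, adjusted p = 1.3e-05), an SRF partner at the *Fos* promoter, were higher. On the CD3 scale, 0 of the bZIP genes were called higher and 10 lower. The IRF, ETS and Ikaros list had 1 higher and 8 lower there, and the kinases and factors 0 higher and 15 lower. Of all genes, 0.345% and 92.0% were so called.

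Genes listed for composite NFAT:AP-1 sites were compared with genes associated with NFAT alone. Whether each listed gene needs AP-1 was not tested. Of 12 genes listed for composite sites, 7 had enough counts to be tested, 6 of them were higher and none lower, with a median log2 fold change of 1.40. For this list and the next, the shares of all genes tested were 17.4% higher and 15.4% lower. Among those with at least 50 counts on average, *Cd40lg* rose by 2.42, *Ifng* by 1.63, *Cd69* by 1.40 and *Tnf* by 1.34. *Il2*, the standard example of such a gene, had 14, 3, 7 and 12 counts and a log2 fold change of 0.32 (adjusted p = 0.79). It falls outside the naming rule and was added after its values were seen. *Il13* had no count in any library, and *Il3*, *Il4*, *Il5* and *Csf2* had at most 16 counts. Of 18 genes associated with NFAT in the absence of AP-1, 11 were higher and 1 lower, with a median of 1.17. *Tox* (2.83) and *Dgka* (2.45), genes of T cell exhaustion and anergy, rose most among genes with that many counts, and *Dgkz* rose by 0.90. Since *Tox*, *Pdcd1*, *Lag3*, *Ctla4* and *Tigit* were singled out by the study in these libraries, the count is not independent evidence of a direction. On the CD3 scale the medians were -0.78 and -0.99, where that of all genes was -2.19. None was called higher there, and 4 of 7 and 11 of 18 were called lower, against 92.0% of all genes. The difference between the lists was not tested.

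Of 12 target genes of BATF and IRF4, 10 were higher and 1 lower, with a median log2 fold change of 1.86. Among all genes tested, 17.4% were called higher and 15.4% lower. All 12 T cell markers were higher, with a median of 2.39. *Ccr8*, a chemokine receptor of tissue regulatory T cells, rose by 2.36 and *Bcl6*, the factor of follicular helper T cells, by 0.82. *Il1rl1*, the IL-33 receptor, fell by 1.65 on the log2 scale (adjusted p = 0.00012). On the CD3 scale the median of these targets was -0.34, where that of all genes was -2.19. None of the targets was called higher there and 5 were called lower, against 0.345% and 92.0% of all genes. The part of T cell content in these values was not tested. These lists were written with the roles of the genes in mind, and *Ctla4* and *Il21* belong to more than 1 of them.

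Tissue digestion induces many AP-1 genes, and the 14 genes of the dissociation and early response were therefore compared between the genotypes. Of these, 1 was higher (*Btg2*, an antiproliferative gene, 1.04) and 2 lower (*Hspa1a*, -0.88, and *Hspa8*, -0.66, heat shock chaperones), with a median log2 fold change of -0.015. The shares of all genes tested were 17.4% higher and 15.4% lower. On omission of single libraries *Hspa1a* ran from -1.09 to -0.66 and *Hspa8* from -0.76 to -0.57. These ranges are of effect sizes and do not mean that the calls held. The summed level of the 14 genes was 4715 and 4109 CPM in the WT-labelled libraries and 3511 and 4169 CPM in the CD4/ALK4-KO-labelled ones. These groups overlapped, and the part of that level in the values of *Jun* and *Fos* was not tested.

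Genes with the most similar pattern over the 4 libraries were found by the Euclidean distance between centred log2 CPM values, among 10459 or 10460 genes averaging 100 counts or more. They were *Apba3*, *Ccdc51* and *Spr* for *Jun* (distance 0.030 to 0.052), *Slc29a3*, *Rasgrp3* and *Htt* for *Batf* (0.060 to 0.070), and *Cpm*, *Ehd3* and *Zfp831* for *Irf4* (0.13 to 0.26). For *Fosl1* they were *Tfap4*, *Pcolce2* and *Grem1* (0.18 to 0.24), of which *Pcolce2* and *Grem1* encode secreted proteins of stromal cells. With 4 libraries in 2 groups, such a distance mainly reads the difference between the genotypes.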

How the data were processed

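RNA-Seq libraries (TruSeq RNA v2, 75 bp single-end reads) were made from 4 samples. According to the methods and the labels, HISAT2 alignment to mm10 was followed by htseq-count in its intersection non-empty mode, and the authors deposited the resulting raw counts, not normalized. Versions, annotation and strand option are not given in the sources used here. Sample titles gave the genotype and replicate number. Replicates differed by more than sampling noise (chi-square per degree of freedom 17.1 and 30.5). Nothing states how many mice a library holds, so p-values measure the spread between these libraries.

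Counts were fitted with edgeR 4.0.16 in R 4.3.3 (filterByExpr, TMM, robust glmQLFit, genotype as the only term) and tested with glmQLFTest, Benjamini-Hochberg adjusted over 13919 genes. Standard errors were derived from the fold change and its F statistic, and 95% intervals use the same degrees of freedom. RPKM used the exon union of GENCODE M21 (GRCm38), which matched 24366 symbols. The CD3 scale replaced TMM by the summed CD3 complex counts. Of the 7 receptor complex symbols chosen, 3 (*Trac*, *Trbc1*, *Trbc2*) are not among the counted symbols. Alternatives were DESeq2 1.42.0 (size factors, Wald test), upper quartile scaling, other filters, a replicate block and leaving out each library. The script was tested on simulated data.

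Named genes were the members, the NFAT family and, from each list, every called gene or, above 4, the 2 highest and 2 lowest with a mean of at least 50 counts. *Nr4a1*, *Nr4a2*, *Egr2*, *Socs3*, *Lyz2*, *Xbp1*, *Sdc1*, *Gm11175*, *Spi1*, *Il2*, *Il3*, *Il4*, *Il5*, *Il13*, *Csf2*, *Tnfrsf17* and *Nkx2-1*, *Ccdc85b* and *Acvr1b* are named outside this rule. Some genes that the rule selects are not reported here. The members and lists were chosen with earlier results of these data known. Gene lists are described by counts and medians, with no set test.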

Additional observations from a re-analysis of the deposited data

How the results depend on the processing

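Scaling and single libraries mattered most. The members called numbered 2 higher and 2 lower, the NFAT genes 4 higher and 0 lower, and the genes of the other lists 40 higher and 6 lower. On the T cell receptor (CD3) scale these became 1 and 9, 0 and 3, and 1 and 65, and the log2 fold changes that turned from above to below 0 were those of *Junb* (-1.71), *Jund* (-2.11), *Fos* (-2.11), *Fosl2* (-1.70), *Batf* (-0.72), *Batf3* (-2.09), *Nfatc1* (-0.41), *Nfatc2* (-0.14), *Nfatc3* (-0.62) and *Nfat5* (-1.43). With upper quartile scaling *Fos* was at -0.013. Leaving out 1 library at a time gave 2 to 4 members higher and 0 to 3 lower, 3 to 4 NFAT genes higher, and 30 to 48 other listed genes higher and 1 to 12 lower. It turned the sign of *Jund* (-0.060 to 0.22), *Fos* (-0.23 to 0.31), *Fosb* (-1.0 to 0.20), *Fosl2* (-0.043 to 0.85) and *Batf3* (-0.028 to 0.21), none of them called with all libraries. The members called lower numbered 0 without WT replicate 1, where *Nfat5* also lost its call (0.46, adjusted p = 0.46), and 1 without WT replicate 2.

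The replicate numbers were not taken to pair the libraries, since no label says what they share and the deviations of same-numbered libraries correlated at -0.24 across genes. With the replicate block, 1 member was lower and 2 other listed genes were, *Jun* being at -0.62 (adjusted p = 0.15). With the numbers crossed, an alternative added after seeing the data, 3 members were higher, *Junb* among them (adjusted p = 0.011), and 10 other listed genes lower. Under DESeq2's size factors, its Wald test and both other filters on low counts, the members and NFAT genes kept their direction and their side of the threshold. With the mean transcript length in place of the exon union, all 20 ranks of the members by level were kept. That change of length does not address the exons that *Fosl1* shares with *Ccdc85b*. All 12 read ratios kept their direction with 1 added to each count and without each library. *Irf4* on a scale of 12 T cell markers in place of 4 was at 0.67 (adjusted p = 0.038). Depth limits *Batf3*, *Nfatc4* and *Fosl1* most, with under 40 counts in 1 or more libraries, and the cause of the changes between settings was not tested.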
